A study of Mus musculus with 2 samples.

Results

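The 10 genes described here encode the contractile apparatus of smooth muscle and were followed by name through the cells of newborn mouse lung: Acta2, Tagln, Myh11, Actg2, Cnn1, Des, Mylk, Myl9, Lmod1 and Tpm2. They are 10 of the 27254 genes listed in at least 1 of the 2 libraries, and all 10 had a row in both. Whole lungs, left and right lobes, of wild-type (wt) female C57BL/6J mice at postnatal day (PND) 1 were dissociated and sequenced by Drop-seq, in which the RNA of each cell is tagged in a droplet with a cell barcode and each captured molecule with a unique molecular identifier (UMI). Batch 1 and Batch 2 were 1 mouse each, with no treatment and no second genotype, so the comparisons are between cell classes within the same 2 animals.

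Smooth muscle shortens when myosin filaments built on the heavy chain Myh11 pull on filaments of smooth muscle actin. Calcium starts the cycle through the kinase encoded by Mylk, which phosphorylates the regulatory light chain, while tropomyosin, calponin, leiomodin and transgelin bind the actin filament and desmin links it to the rest of the cell. Serum response factor and its partner myocardin switch many of these genes on through CArG boxes, short runs of A and T between CC and GG. In the newborn lung smooth muscle surrounds airways and arteries, pericytes lie along capillaries, and alveolar myofibroblasts sit at the tips of the forming septa.

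Promoter sequence is shown first, because the CArG box is the element through which the members are known to be regulated together. RefSeq (GRCm38.p6) windows of 250 bases before to 50 after the start were at hand for 7 of the 10 members (Acta2, Cnn1, Des, Mylk, Myl9, Lmod1 and Tpm2). A CArG box of 6 A or T bases was sought on both strands. It was found in the window of Myl9 and in no other member's, against 1.63% of all 32851 windows. With 1 G or C allowed in the run, Myl9 held a further match and Acta2 held 2, against 8.50% of all windows. The lines give 5′ to 3′ sequence on the strand of the gene, with the match in capitals.
Myl9, chr2:156775293-156775322, plus strand, exact match: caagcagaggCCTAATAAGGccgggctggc
Myl9, chr2:156775355-156775384, plus strand, 1 base different: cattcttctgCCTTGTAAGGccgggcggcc
Acta2, chr19:34255438-34255467, minus strand, 1 base different: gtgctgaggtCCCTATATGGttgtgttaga
Acta2, chr19:34255388-34255417, minus strand, 1 base different: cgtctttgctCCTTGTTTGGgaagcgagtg

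Counted from the RefSeq start, the Myl9 matches spanned bases -161 to -152 and -99 to -90, and the Acta2 matches bases -84 to -75 and -34 to -25. GENCODE vM21 places the Myl9 stretches outside every transcript of the gene, which runs from 156775420 to 156781658 on chromosome 2. It places the Acta2 stretches within an exon of Acta2-201 (34255290 to 34255590 on chromosome 19), since that model starts further upstream than the RefSeq one. A match of letters is a description and not a site of binding, and for the windows with no match nothing follows about the factor.

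After cells with over 10% mitochondrial UMIs were set aside, 2388 cells with 4432553 UMIs remained in Batch 1 and 5615 cells with 18232639 UMIs in Batch 2. The median cell held 1386.5 UMIs and 788 genes in Batch 1, and 2014 UMIs and 1048 genes in Batch 2. No barcode was shared by the batches. In Batch 2 the mitochondrial limit set aside 1940 cells, and in Batch 1 it set aside 1.

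Cells were grouped without the members and without the listed contractile and paralog genes, and each cluster was named from marker genes. The SMC-like (smooth muscle-like) class held 99 cells in Batch 1 and 254 in Batch 2, and Tgfbi was the leading gene of all 3 of its clusters. The myofibroblast-like class held 69 and 173 cells, led by Enpp2, Igfbp3, Agt and Penk. Its marker Pdgfra, a growth factor receptor, stood at 4.46 and 4.08 UMIs per 10000, and Ednrb, an endothelin receptor, at 9.25 and 5.92. This class also had Tgfbi, at 37.8 and 18.2. In the SMC-like clusters of 171 and 170 cells, Pdgfra stood at 1.32 and 1.46 and at 1.03 and 0.83. Ednrb stood there at 4.70 and 3.25 and at 2.05 and 3.61. The name SMC-like follows a marker list and does not mean that each cell was smooth muscle. The vascular mural-like class, with Pi15, Timp4 and Mustn1 among its leading genes, held 13 and 89 cells. The capillary pericyte-like class, with Higd1b, Cox4i2 and Pdgfrb, held 64 and 151 cells. The Batch 1 sum of the vascular mural-like class was small, at 18525 UMIs, and each of its Batch 1 levels rests on few molecules.

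The copy of the subtype labels used here covered part of the Batch 1 cells, and the rebuilt classes differed from them in breadth. Of the 36 cells labelled Smooth Muscle, 35 were SMC-like, and so were 37 of the 57 labelled MyoFB-2, so the SMC-like class is wider than that subtype. Every member was higher in the cells labelled Smooth Muscle than in those labelled MyoFB-2. For Myh11 the Poisson intervals overlapped, at 4.92 to 9.73 against 2.47 to 5.55 UMIs per 10000. The paper lists Acta2, Actg2, Cnn1 and Des among the markers of the Smooth Muscle label in these same cells. The order of these genes between the labels is therefore not an independent result. Acta2 stood at 32.4 against 7.72 UMIs per 10000 and Cnn1 at 6.06 against 0.15. SMC-like values in Batch 1 are thus averages over cells of both labels. When the members and listed genes were let into the clustering, 11 Batch 1 and 18 Batch 2 SMC-like cells formed a cluster of their own. It was led by Actg2, Cnn1 and Acta2, so the class was uneven in both batches. Cells labelled MyoFB-1 were myofibroblast-like in 40 of 43 cases. All 9 Pericyte-1 cells were vascular mural-like and all 44 Pericyte-2 cells were capillary pericyte-like.

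Summed over the 10 members, the SMC-like and vascular mural-like classes stood highest in both batches. A level here is the UMIs of a gene in the cells of a class and batch per 10000 UMIs of those cells. It is not divided by gene length and is set side by side between classes, not between genes. The members took 86.0 UMIs per 10000 (exact Poisson 95% interval 80.9 to 91.3) in SMC-like cells of Batch 1 and 41.8 (39.9 to 43.9) in those of Batch 2. In vascular mural-like cells they took 78.3 (66.1 to 92.1) and 73.6 (69.9 to 77.4). The intervals cover counting error only. The SMC-like class was the higher of the pair in Batch 1, within overlapping intervals, and the lower in Batch 2.

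Myofibroblast-like cells came next in Batch 1, with 27.7 UMIs per 10000 (24.4 to 31.3) over the members, and stood at the level of other mesenchymal classes in Batch 2, with 11.9 (10.6 to 13.3). Capillary pericyte-like cells had 11.4 and 13.3. Collagen matrix fibroblast-like cells (69 and 96 cells) had 13.2 and 18.8, and Tcf21 matrix fibroblast-like cells (907 and 1224 cells) had 11.97 and 6.57. Without 1 cell, the Batch 1 collagen matrix fibroblast-like level was 7.35. In Batch 2 the intervals of myofibroblast-like and capillary pericyte-like cells overlapped, but without 1 of its 173 cells the myofibroblast-like level was 8.84, and in that batch collagen matrix fibroblast-like cells lay above both.

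Outside these classes the members were low. Their sum was 3.61 and 3.14 UMIs per 10000 in mesothelial-like cells, 1.56 and 0.31 in epithelial-like cells, 1.35 and 0.77 in vascular endothelial-like cells, 2.2 and 0.69 in myeloid-like cells, and 2.32 and 0.24 in lymphoid-like cells. In the last 4 of these classes the level was the higher in Batch 1. Of the Batch 1 epithelial-like value, 46.1% came from 1 cell with 76 member UMIs of its 2549, which had all 10 members. Without that cell the level was 0.84.

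**Figure D1:**
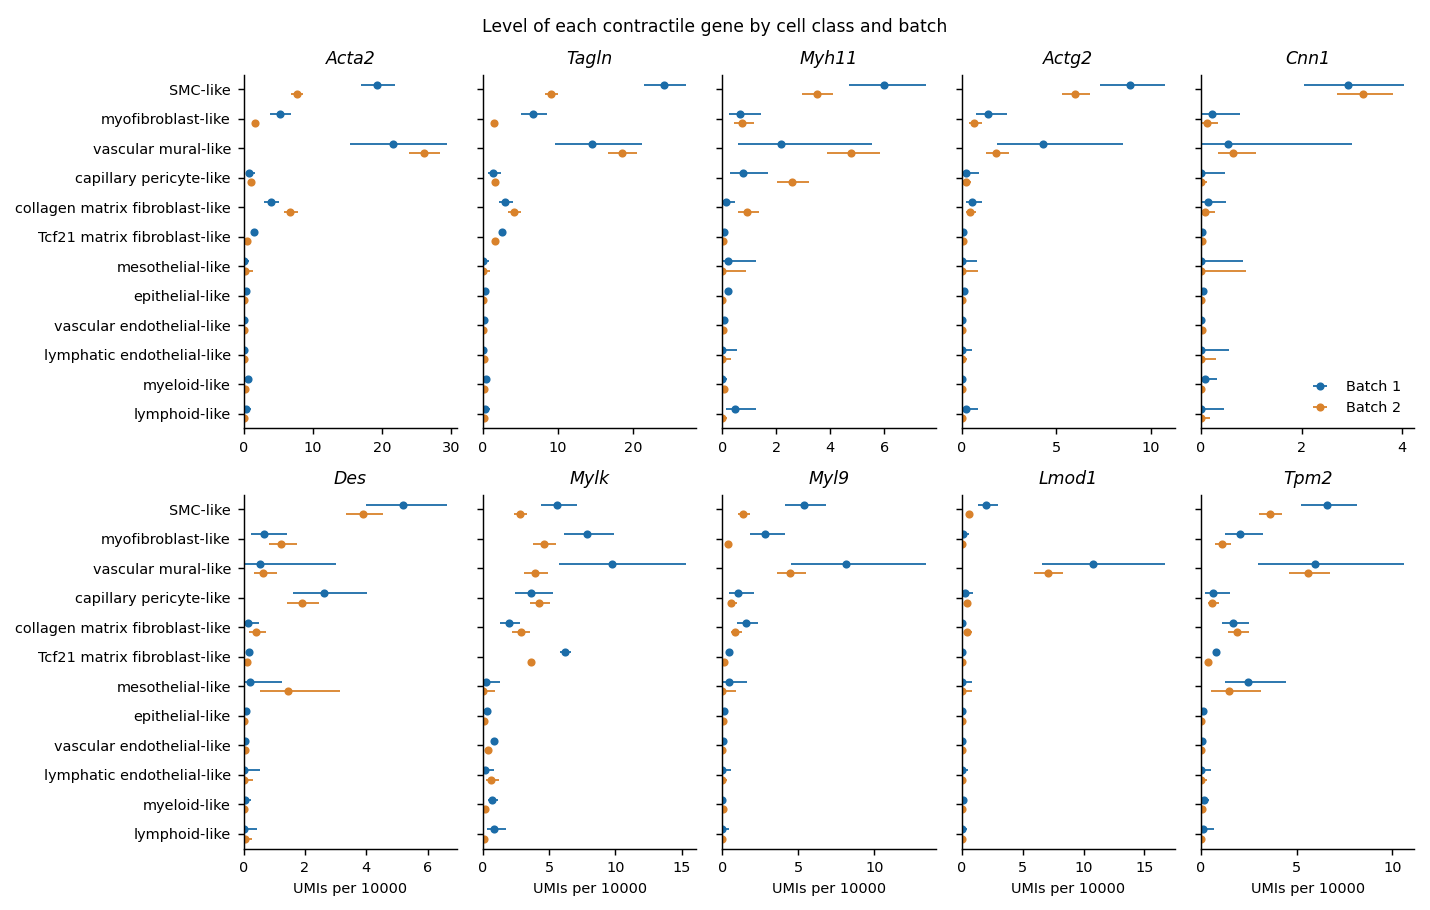
UMIs per 10000 of each member (one panel a gene) in the 12 named cell classes, with points for the 2 batches and bars for the exact Poisson 95% interval of the count. Acta2 and Tagln were highest in SMC-like and vascular mural-like cells, Cnn1, Actg2 and Des in SMC-like cells, and Lmod1 in vascular mural-like cells.

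The actins come first among the members by role. Acta2, the smooth muscle actin of vessels, airways and myofibroblasts, stood at 19.3 (16.9 to 21.9) and 7.68 (6.86 to 8.57) UMIs per 10000 in SMC-like cells of Batch 1 and Batch 2. In vascular mural-like cells it stood at 21.6 (15.4 to 29.4) and 26.1 (23.9 to 28.4), and in myofibroblast-like cells at 5.23 (3.85 to 6.93) and 1.61 (1.15 to 2.18). Capillary pericyte-like cells had 0.78 and 1.08. The vascular mural-like and SMC-like intervals overlapped in Batch 1 and were far apart in Batch 2. Myofibroblast-like and capillary pericyte-like cells were separated in Batch 1, while their intervals overlapped in Batch 2.

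Actg2, the actin best known from gut and bladder muscle, was in contrast highest in SMC-like cells in both batches, at 8.91 (7.33 to 10.7) and 6.00 (5.28 to 6.80) UMIs per 10000. Vascular mural-like cells had 4.32 (1.86 to 8.51) and 1.84 (1.29 to 2.53), and myofibroblast-like cells 1.42 and 0.67. SMC-like cells held 63.2% of all Actg2 UMIs of Batch 1 and 65.0% of those of Batch 2. For Acta2 the class that held most changed with the batch, since vascular mural-like cells, 13 in one batch and 89 in the other, held 5.94% and 37.4%.

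Of the motor proteins, Myh11 stood at 6.00 (4.71 to 7.53) and 3.49 (2.95 to 4.11) UMIs per 10000 in SMC-like cells. Vascular mural-like cells had 2.16 (0.59 to 5.53), from 4 molecules, and 4.77 (3.86 to 5.82). The order of these classes was thus opposite in the 2 batches. In capillary pericyte-like cells Myh11 stood at 0.78 (0.29 to 1.71) and 2.57 (2.02 to 3.21), which in Batch 2 was above the 0.75 (0.45 to 1.16) of myofibroblast-like cells.

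Mylk, the light chain kinase, was spread over the whole mesenchyme. It stood at 5.59 and 2.80 UMIs per 10000 in SMC-like cells, 7.84 and 4.59 in myofibroblast-like cells, 3.66 and 4.25 in capillary pericyte-like cells and 6.23 and 3.65 in Tcf21 matrix fibroblast-like cells. The last class, by its size, held 68.3% and 49.8% of all Mylk UMIs. The vascular mural-like level of 9.72 in Batch 1 rested on 1 cell with 14 of the 18 molecules, and the Batch 2 level was 3.92. The regulatory light chain Myl9 stood at 8.10 and 4.47 in vascular mural-like cells, 5.35 and 1.39 in SMC-like cells, 2.83 and 0.35 in myofibroblast-like cells, and 1.05 and 0.61 in capillary pericyte-like cells.

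The actin-binding members divided between the muscle classes. Cnn1, calponin, stood at 2.92 (2.04 to 4.04) and 3.23 (2.71 to 3.82) UMIs per 10000 in SMC-like cells, against 0.54 (0.01 to 3.01) and 0.65 (0.34 to 1.10) in vascular mural-like cells and 0.22 and 0.12 in myofibroblast-like cells. No Cnn1 molecule was counted in capillary pericyte-like cells, whose 76534 and 296165 UMIs allow up to 0.39 and 0.10 per 10000. SMC-like cells held 70.6% and 77.6% of all Cnn1 UMIs, the largest share of a member held by 1 class in each batch. Lmod1, leiomodin, which nucleates actin filaments, went the other way. It stood at 10.8 (6.59 to 16.7) and 7.05 (5.94 to 8.31) in vascular mural-like cells, above the 2.03 (1.31 to 2.99) and 0.65 (0.43 to 0.94) of SMC-like cells in both batches.

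Tagln, transgelin, stood at 24.2 (21.5 to 27.1) and 9.09 (8.20 to 10.1) UMIs per 10000 in SMC-like cells and at 14.6 (9.60 to 21.2) and 18.5 (16.7 to 20.5) in vascular mural-like cells, so the higher class changed with the batch. Tcf21 matrix fibroblast-like cells had 2.59 and 1.60 and, being many, held 41.4% and 26.1% of all Tagln UMIs. Tpm2, a tropomyosin, stood at 6.56 and 3.61 in SMC-like cells and 5.94 and 5.61 in vascular mural-like cells. It was the one member with a level over 1 per 10000 in both batches in a named class outside these mesenchymal classes, at 2.48 and 1.45 in mesothelial-like cells (21 and 11 cells).

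Des, desmin, stood at 5.19 (3.99 to 6.62) and 3.90 (3.32 to 4.55) UMIs per 10000 in SMC-like cells and at 2.61 (1.60 to 4.04) and 1.89 (1.43 to 2.46) in capillary pericyte-like cells. Vascular mural-like cells had 0.54 (0.01 to 3.01) and 0.65 (0.34 to 1.10). Desmin was thus lower in the mural class rich in actin than in the pericyte class, with intervals apart in Batch 2 and overlapping in Batch 1.

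Detection, the percent of cells of a class with at least 1 UMI of the gene, depends on depth. The median cell held 1122 and 1440.5 UMIs in the SMC-like class, 1229 and 1872 in the vascular mural-like class, 1090 and 1398 in the myofibroblast-like class and 1097 and 1709 in the capillary pericyte-like class. Acta2 was detected in 84.6% (exact binomial 95% interval 54.6 to 98.1) and 84.3% (75 to 91.1) of vascular mural-like cells. It was detected in 58.6% (48.2 to 68.4) and 29.5% (24.0 to 35.6) of SMC-like cells, 31.9% and 8.09% of myofibroblast-like cells, and 9.38% and 11.3% of capillary pericyte-like cells. As background, Acta2 had a UMI in 4.72% and 3.54% of epithelial-like cells, with medians of 2284.5 and 3562.5 UMIs, in 2.00% and 2.31% of vascular endothelial-like cells, with medians of 1279 and 1866, and in 6.98% and 0% of the 43 and 82 lymphoid-like cells. The interval of the Batch 1 capillary pericyte-like share, 3.52 to 19.3, took in the epithelial-like and lymphoid-like shares of that batch. With each cell thinned to 600 UMIs, Acta2 was detected in 45.5% and 16.1% of SMC-like cells and in 84.6% and 65.2% of vascular mural-like cells, in the same order.

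Detection of Lmod1 and Des also differed between mural classes in Batch 2. Lmod1 had a UMI in 53.8% (25.1 to 80.8) and 66.3% (55.5 to 76.0) of vascular mural-like cells, and in 17.2% (10.3 to 26.1) and 6.30% (3.64 to 10.03) of SMC-like cells. Des had a UMI in 38.4% (28.8 to 48.7) and 36.2% (30.3 to 42.5) of SMC-like cells, 23.4% and 25.2% of capillary pericyte-like cells, and 7.69% (0.195 to 36.0) and 12.4% (6.33 to 21.0) of vascular mural-like cells. The intervals of SMC-like and vascular mural-like cells lay apart for both genes in Batch 2 and overlapped in Batch 1. Mylk had a UMI in 43.5% and 41.0% of myofibroblast-like cells and in 51.9% and 42.2% of Tcf21 matrix fibroblast-like cells, against a background of 11.98% and 10.03% in vascular endothelial-like cells. Cnn1 was detected in 15.2% and 13.8% of SMC-like cells and in 1 myofibroblast-like cell per batch.

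Counting how many of the 10 members each cell had at least 1 UMI of, the median was 4 and 2 in SMC-like cells, 4 and 5 in vascular mural-like cells, 1 and 1 in myofibroblast-like cells and 1 and 2 in capillary pericyte-like cells. At least 3 members were found in 67.7% (57.5 to 76.7) and 40.6% (34.5 to 46.9) of SMC-like cells, and in 53.8% (25.1 to 80.8) and 86.5% (77.6 to 92.8) of vascular mural-like cells. The corresponding shares were 30.4% and 4.62% in myofibroblast-like cells, 10.9% and 20.5% in capillary pericyte-like cells and 0.83% and 0.54% in epithelial-like cells. No member at all was found in 2.02% of SMC-like cells of Batch 1 and in 21.7% of those of Batch 2. Thinned to 600 UMIs, the share with at least 3 members was 50.5% and 15.0% in SMC-like cells and 53.8% and 52.8% in vascular mural-like cells. At equal depth the 2 mice thus still differed within the SMC-like class.

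The SMC-like members' levels were also unevenly spread over cells. The median SMC-like cell had 60.8 member UMIs per 10000 of its own UMIs in Batch 1 and 15.8 in Batch 2, and the highest had 510 and 659. In Batch 1, 7 of the 99 cells reached 200 per 10000 and held 29.9% of the class's member UMIs. In Batch 2, 7 of 254 cells reached it and held 41.7%, and the other cells of the class together stood at 25.6 per 10000. The highest cell of Batch 2 had 246 member UMIs of its 3733, from all 10 members, among them 59 of Acta2, 47 of Actg2, 44 of Tpm2, 38 of Tagln and 24 of Cnn1. None of the SMC-like cells over this level was called a doublet by Scrublet.

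Vascular mural-like cells had a median of 51.5 and 64.4 member UMIs per 10000. They were more even than SMC-like cells in Batch 2, where 2 of the 89 cells reached 200 and held 9.05% of the class's member UMIs, and in Batch 1 it was 1 of 13 cells, with 33.1%. In the myofibroblast-like class of Batch 2, 1 of 173 cells held 26.7% of the member UMIs, including 14 of the 17 Actg2 molecules. The remaining cells of that class stood at 8.84 per 10000, and Actg2 in them at 0.12. Likewise 1 collagen matrix fibroblast-like cell held 45.9% of that class's member UMIs in Batch 1.

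**Figure D2:**
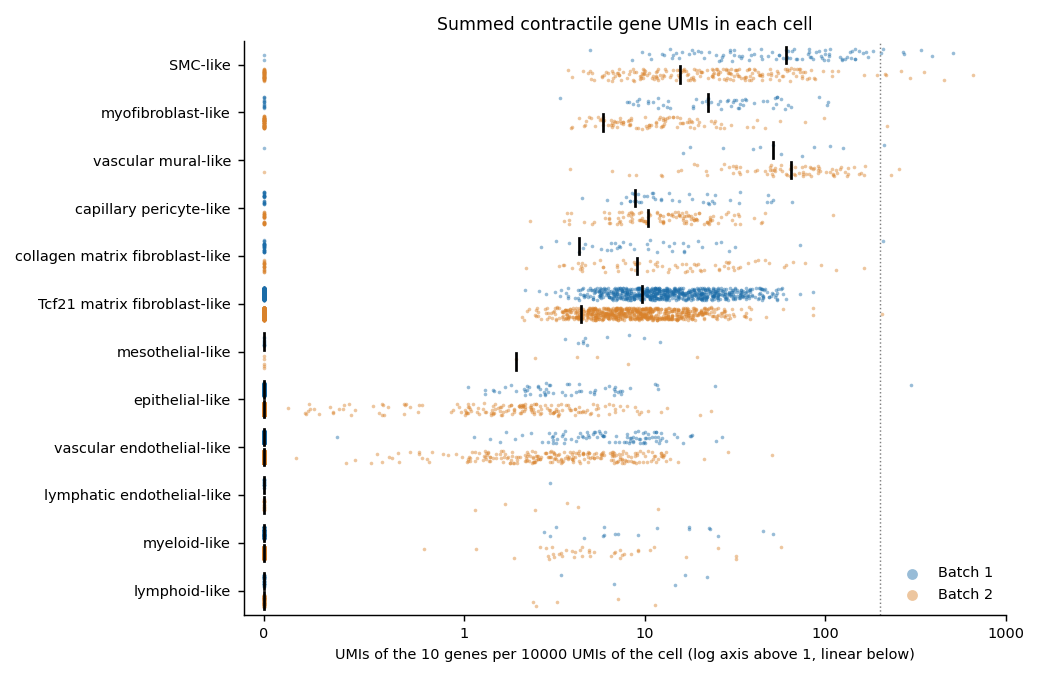
Summed member UMIs per 10000 UMIs of each cell by class and batch, on an axis that is logarithmic above 1 and linear below it, where black bars are medians and the dotted line marks 200. SMC-like cells of Batch 2 had a median of 15.8 with 7 cells above the line, and vascular mural-like cells of the same batch a median of 64.4 with 2.

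Co-detection, the percent of cells with both of a pair of members, was set against the product of the separate shares. The product is what separate detection would give in cells of equal depth and equal level. In SMC-like cells Acta2 and Tagln were found together in 51.5% of Batch 1 cells against a product of 46.2%, and in 20.9% of Batch 2 cells against 11.97%. All 45 pairs of members lay above the product in Batch 2 and 43 did in Batch 1. Des with Lmod1 and Des with Mylk were the 2 pairs below it. The ratio to the product was largest in Batch 2 for Myl9 with Lmod1, at 5.08, and Cnn1 with Lmod1, at 4.54, from 8 and 10 cells. With each cell thinned to 600 UMIs, 41 and 44 of the pairs were above it. These pairs share cells and are not independent. The share of pairs of other genes above their product is not given here, for this or any class. The counts therefore do not set the members apart from other genes. Cells of the SMC-like class also differed widely in member level, as given above, which the product does not allow for.

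In vascular mural-like cells of Batch 2, Acta2 and Tagln were together in 78.7% of cells against a product of 75.7%, and Acta2 and Lmod1 in 62.9% against 55.9%. With shares this high the ratio to the product cannot be far from 1. Thinned to 600 UMIs, 31 of 45 pairs lay above the product in each batch. In myofibroblast-like cells Acta2 and Tagln were together in 20.3% against 10.6% in Batch 1, and in Batch 2 in 5 cells, 2.89% against 0.80%. Capillary pericyte-like cells paired other members, with Myh11 and Mylk together in 6.25% against 2.64% and 21.9% against 17.8%, and Myh11 and Des in 11.9% against 9.0% in Batch 2. Of the pairs with a product above 0, 23 of 36 and 30 of 36 were above it in this class, and 14 of 28 and 16 of 36 when thinned.

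**Figure D3:**
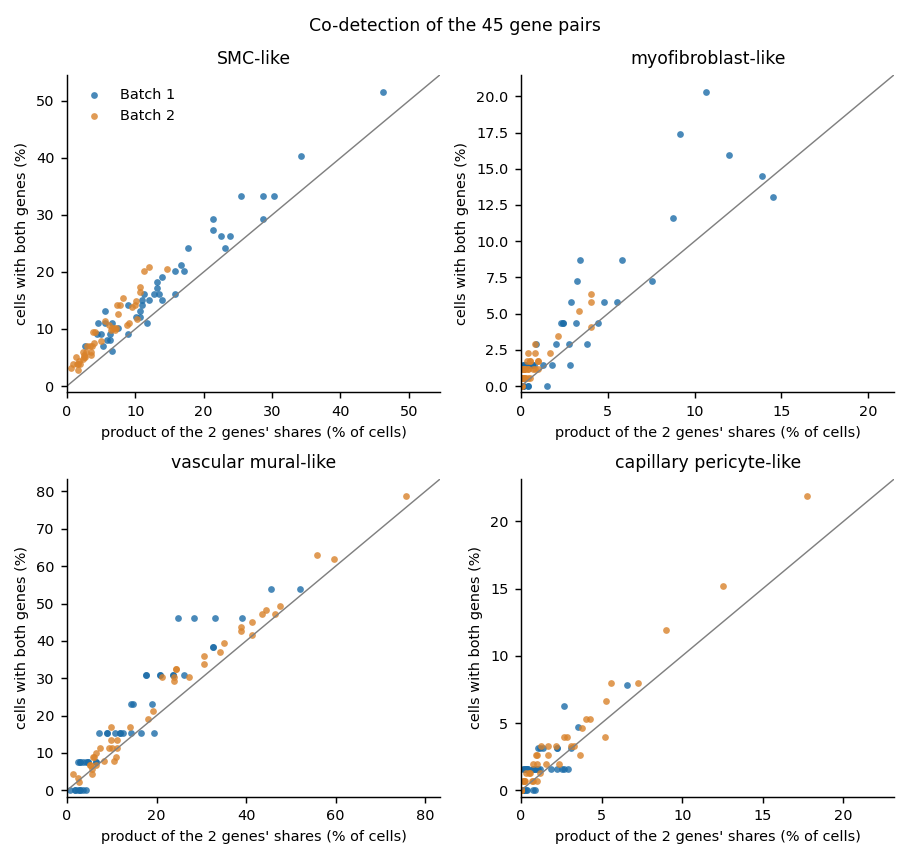
Percent of cells with both members of a pair against the product of their separate shares for the 45 pairs, by class, with the line of equality and points for the 2 batches. The SMC-like pairs lay above the line in 43 of 45 cases in Batch 1 and 45 of 45 in Batch 2. Pairs of other genes are not shown.

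A share within a gene family does not depend on the depth of the cell. UMIs of Acta2 and Actg2 as a share of all actin UMIs (with Actb, Actg1, Acta1 and Actc1) give the part of the actin messages that was smooth muscle actin. The share was 30.6% (23.5 to 38.4) and 33.5% (31.2 to 35.8) in vascular mural-like cells and 29.6% (27.0 to 32.3) and 20.3% (18.8 to 21.8) in SMC-like cells. It was 9.98% and 5.36% in myofibroblast-like cells, 10.2% and 12.1% in collagen matrix fibroblast-like cells, 2.88% and 3.61% in capillary pericyte-like cells, and 0.30% and 0.26% in vascular endothelial-like cells. Actg2 alone made 9.37% and 8.90% of actin UMIs in SMC-like cells, against 5.10% and 2.2% in vascular mural-like cells, with intervals apart in Batch 2.

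Myh11 took 56.5% (47.6 to 65.1) and 45.9% (40.3 to 51.6) of the UMIs of the class 2 myosin heavy chains Myh11, Myh9 and Myh10 in SMC-like cells, and 40.0% and 51.1% in vascular mural-like cells. In capillary pericyte-like cells it took 17.1% and 38.0%, with non-muscle Myh9 at 77.1% and 59.0%, and in myofibroblast-like cells 16.2% and 19.6%. Tcf21 matrix fibroblast-like cells, at 2.08% and 0.79%, used mainly non-muscle Myh10, at 85.8% and 88.6%. Within the calponins, Cnn1 took 25.0% and 40.5% in SMC-like cells, 6.25% and 9.56% in vascular mural-like cells, and 3.28% and 3.19% in myofibroblast-like cells. Des took 29.6% and 31.7% of the UMIs of Des and Vim in SMC-like cells and 27.8% and 21.6% in capillary pericyte-like cells, against 2.94% and 3.90% in vascular mural-like cells. Myl9 took 44.1% and 29.6% of regulatory light chain UMIs in vascular mural-like cells and 22.8% and 8.94% in SMC-like cells. Tpm2 took 20% and 16.8% of tropomyosin UMIs in SMC-like cells, 23.4% and 15.5% in vascular mural-like cells and 4.95% and 4.58% in capillary pericyte-like cells.

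**Figure D4:**
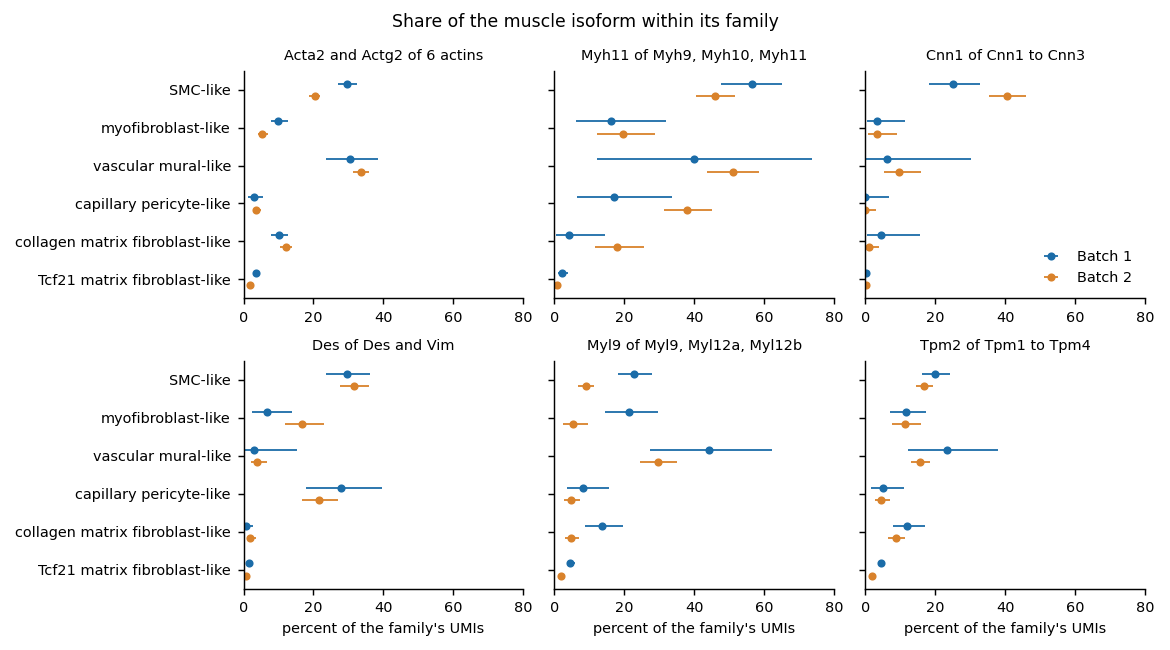
UMIs of the muscle isoform as percent of its gene family in 6 mesenchymal classes, by batch, with exact binomial 95% intervals. Muscle actin made 30.6% and 33.5% of actin UMIs in vascular mural-like cells and 2.88% and 3.61% in capillary pericyte-like cells, while the share of desmin was higher in the latter.

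The differences between classes were tested on UMI sums per class and mouse with edgeR's quasi-likelihood test, with the mouse as a block and Benjamini-Hochberg adjustment over the 7863 genes tested. The 12 classes gave 24 sums, and each class has 2. The clusters were made without the members, but other genes that vary with them took part, so a member's test is not fully independent of the class. The sums of all classes come from the same 2 mice and libraries, and the block takes up the mean difference between the mice. The p-values set each class difference against the spread left after the class and mouse terms. That spread reflects how class differences varied between the 2 mice, and was estimated over all 12 classes with 11 residual degrees of freedom. The 5 comparisons reuse classes and are not independent of each other.

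The first comparison asks which contractile genes tell SMC-like from myofibroblast-like cells. Of the 10 members 7 were higher in SMC-like cells and none lower at an adjusted p under 0.05, where 0.992% of all genes tested were called, 0.712% as higher and 0.280% as lower in SMC-like cells. Cnn1 differed by a log2 fold change of 4.40 (SE 0.70, adjusted p 0.000789) and Actg2 by 2.96 (SE 0.48, adjusted p 0.000773). Lmod1 differed by 4.28 (SE 0.95, adjusted p 0.0182) from 52 against 2 molecules, a ratio of levels of 16.7 (4.38 to 141). In each batch the levels of these genes were higher in SMC-like cells, with Poisson intervals apart. Those intervals cover counting error only, and the share of all genes with intervals apart is not given here.

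The general muscle genes Tagln (log2 fold change 2.17), Des (2.16), Acta2 (2.07) and Tpm2 (1.73) passed more narrowly, with adjusted p of 0.0412, 0.0302, 0.0499 and 0.0439. Myh11 (2.67, SE 0.78, adjusted p 0.131), Myl9 (1.28, adjusted p 0.393) and Mylk (-0.57, adjusted p 0.868) did not pass. Cnn1 alone kept its call under every alternative. Without the block for the mouse the adjusted p was 0.632 for Acta2 and Tagln, 0.565 for Tpm2, 0.319 for Des, 0.104 for Lmod1 and 0.0996 for Actg2, and 0.0420 for Cnn1. Of 24 other contractile genes and 6 regulators tested, edgeR and DESeq2 each called 0, and 9 of the former and 0 of the latter had an unadjusted p under 0.05 in edgeR, as did 641 of all genes. The members' median was 2.17, that of the other contractile genes 0.86 and that of all genes 0.02.

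Vascular mural-like against capillary pericyte-like cells compares the mural classes of vessels. Here 7 members were also higher in the first class and none lower, beside 2.86% of all genes called, 1.34% higher and 1.53% lower. Acta2 differed by 4.53 on the log2 scale (SE 0.60, adjusted p 1.67e-05), Lmod1 by 4.17 (SE 0.59, adjusted p 6.18e-05), Tagln by 3.47 (SE 0.59, adjusted p 0.000464) and Tpm2 by 3.15 (SE 0.50, adjusted p 0.000205). These 4 kept their call under every alternative. Actg2 (3.20, adjusted p 0.00318) and Myl9 (2.86, adjusted p 0.00132) also passed, with 0.0659 and 0.202 without the block. Cnn1, with 14 molecules against 0, was called at an adjusted p of 0.0149, 0.0568 without the block, and was at least 7.91-fold higher against a floor of 3 counts over the class.

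Myh11 (1.09, adjusted p 0.569), Mylk (0.33, adjusted p 0.853) and Des (-1.69, SE 0.66, adjusted p 0.211) did not pass. A p that misses the threshold does not show that the levels of these 3 were alike. Of the 24 other contractile genes, 6 were higher and 1 lower in vascular mural-like cells. Hspb1, a small heat shock protein (4.92), Actn1, an alpha-actinin (3.28), Nexn, an actin-binding protein (2.99), and Fhl1 (2.50) were among the higher, and Lmcd1 (-4.23) was the lower.

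Of 6 regulators, Gata6, a transcription factor, was higher with 53 molecules against 1 (adjusted p 0.000111, ratio of levels 89.9, 15.4 to 3615), and Prdm6 was higher by 2.48. Foxf1, a transcription factor of lung mesenchyme, was lower with 2 molecules against 72 (adjusted p 0.0170, ratio 21.2, 5.67 to 179). The members' median difference was 3.17, or 3.07 with Cnn1 at its bound, against 1.56 for the other contractile genes and -0.11 for all genes.

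The SMC-like and vascular mural-like classes, whose summed levels overlapped in Batch 1 and not in Batch 2, differed in composition. Des (2.74, SE 0.63, adjusted p 0.00791) and Cnn1 (2.19, SE 0.61, adjusted p 0.0378) were higher in SMC-like cells and Lmod1 (-2.72, SE 0.52, adjusted p 0.00142) was higher in vascular mural-like cells. These are 3 of 10 members, beside 4.06% of all genes called, 2.12% higher and 1.93% lower in SMC-like cells. Actg2 missed the threshold (1.57, SE 0.46, adjusted p 0.050). Acta2 (-1.02, SE 0.49, adjusted p 0.317), Myl9 (-1.12, adjusted p 0.202), Tagln (-0.27), Mylk (-0.44), Tpm2 (-0.29) and Myh11 (0.11) did not pass. No member call of this comparison survived a mitochondrial limit of 5%, where Lmod1 had an adjusted p of 0.0552 and Cnn1 and Actg2 changed sign, at -0.72 and -0.55.

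Among the other contractile genes none was higher and 4 were lower in SMC-like cells, namely Hspb2 (-4.15), Itga8 (-3.90), Cryab (-2.95) and Ppp1r14a (-2.68). For Itga8 the sign differed between the batches, and 20 molecules stood against 3. Of the regulators Gata6 (-4.12, adjusted p 0.000262) and Mef2c (-4.09, adjusted p 0.00214) were lower in SMC-like cells. Gata6 stood at 4.32 and 2.24 UMIs per 10000 in vascular mural-like cells against 0.08 and 0.17 in SMC-like cells. Median differences were -0.28 for the members, -0.26 for the other contractile genes and 0.17 for all genes.

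Tcf21 matrix fibroblast-like cells served as a mesenchymal reference. They came mainly from a cluster with 843 Batch 1 and 144 Batch 2 cells and a cluster with 23 and 966, so the make-up of the reference differed between the mice. Against this reference, myofibroblast-like cells were higher in 4 members and lower in none, beside 8.64% of all genes called, 3.45% higher and 5.19% lower. These were Actg2 (3.30, SE 0.57, adjusted p 0.000213), Myh11 (3.48, SE 0.98, adjusted p 0.0212), Des (2.50, SE 0.58, adjusted p 0.00437) and Myl9 (1.87, SE 0.52, adjusted p 0.0197). Acta2 (1.31, adjusted p 0.150), Tpm2 (1.14, adjusted p 0.124), Cnn1 (2.76, adjusted p 0.156), Tagln (0.41), Mylk (0.01) and Lmod1 (1.69, from 2 molecules against 5) did not pass. None of the 4 calls held under every alternative, and the call of Actg2 was lost without the myofibroblast-like cell of Batch 2 described above and the corresponding cell of each other class and batch.

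Of the other contractile genes 4 were higher, Pdlim3 (5.71), Lmcd1 (5.27), Csrp2 (2.90) and Smtn, and 5 were lower, including Itga8 (-6.44, from 1 molecule against 743) and Cryab (-3.42). The other contractile genes had a median of -0.84, opposite in sign to the members' 1.78, and all genes one of -0.10. Both edgeR and DESeq2 called 0 of the 6 regulators, of which 2 had an unadjusted p under 0.05.

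Capillary pericyte-like cells were higher than Tcf21 matrix fibroblast-like cells in 3 members, Myh11 (4.94, SE 0.86, adjusted p 0.000119), Lmod1 (4.52, SE 0.88, adjusted p 0.000546) and Des (3.60, SE 0.54, adjusted p 1.45e-05). All 3 calls held under every alternative, beside 10.9% of all genes called, 5.28% higher and 5.61% lower. Lmod1 in this class rested on 2 and 14 molecules. Actg2 (1.49, adjusted p 0.251) and Myl9 (1.42, adjusted p 0.102) did not pass, nor did Tpm2 (0.01), Acta2 (-0.14), Mylk (-0.45) and Tagln (-0.62), and no fold is given for Cnn1, which had 0 molecules in capillary pericyte-like cells and 6 in Tcf21 matrix fibroblast-like cells, a level below what a count of 0 allows in the former. Acta2, whose fitted value was near 0, took the opposite sign under DESeq2 and 4 other settings.

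The other contractile genes went both ways, 3 higher and 7 lower in capillary pericyte-like cells. Lmcd1 (7.35) and Csrp2 (4.06) were among the higher, and Hspb1 (-4.87), Fhl1 (-4.17) and Nexn (-4.00) among the lower. Foxf1 (2.62, adjusted p 0.00166) was higher and Prdm6 (-1.63, adjusted p 0.0324) lower. The median over the 9 members other than Cnn1 was 1.42 and over all 10 fitted values 0.72, against -0.46 for the other contractile genes and -0.13 for all genes.

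**Figure D5:**
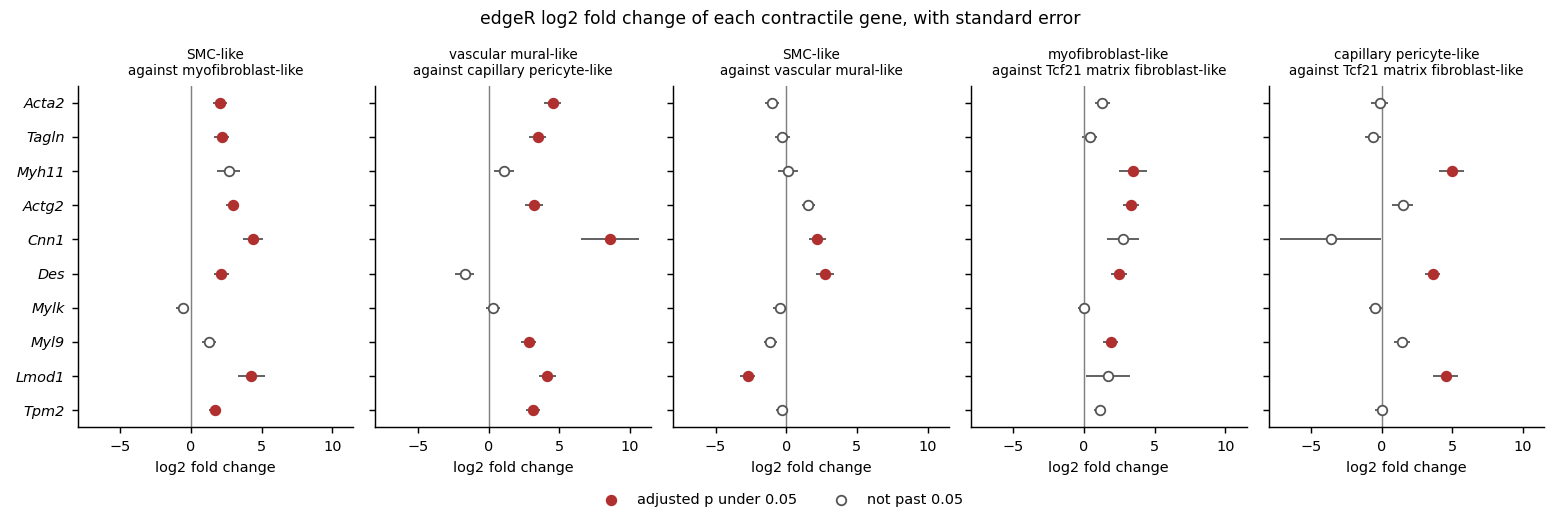
Log2 fold change of each member in the 5 class comparisons, with bars of 1 SE from edgeR, where filled points had an adjusted p under 0.05. Cnn1, Actg2 and Lmod1 were higher in SMC-like than in myofibroblast-like cells, and Acta2, Lmod1, Tagln and Tpm2 were among the 7 members higher in vascular mural-like than in capillary pericyte-like cells.

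The switch genes themselves were barely captured. Myocd, encoding myocardin, stood at 0.32 and 0.36 UMIs per 10000 in SMC-like cells, from 4 and 15 molecules, and at 0 and 0.40 in vascular mural-like cells. It had no molecule in capillary pericyte-like cells, and it was too low to be tested. Srf stood at 0.57 and 0.36 in SMC-like cells and at 0.31 and 0.31 in Tcf21 matrix fibroblast-like cells.

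The 2 mice differed in the members within some classes and not in others. The median over members of the log2 ratio of Batch 1 to Batch 2 was 0.85 in SMC-like cells, where that of all genes was -0.03, and 1.01 in myofibroblast-like cells, where that of all genes was -0.05. In Tcf21 matrix fibroblast-like cells it was 0.74, in capillary pericyte-like cells -0.14 and in collagen matrix fibroblast-like cells -0.45. It was 1.93 in lymphoid-like, 1.63 in epithelial-like, 1.43 in myeloid-like and 0.36 in vascular endothelial-like cells, all classes with low member levels. In vascular mural-like cells it was -0.81, with all genes at -0.96. These ratios are of TMM-scaled log2 CPM, and the Batch 1 sum of this class held only 18525 UMIs from 13 cells. In UMIs per 10000 the members' sum in this class was 78.3 in Batch 1 and 73.6 in Batch 2, so it was not lower in Batch 1. With 1 mouse per batch, animal, preparation and library cannot be told apart.

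Over the 24 sums, the genes outside the lists whose log2 CPM followed the members' mean most closely were 6330403K07Rik (Pearson's r 0.884), Meis3 (0.879), Galnt16 (0.877), Hoxb6 (0.852), 1500009L16Rik (0.838) and Prrx1 (0.831), out of 7644 genes compared. The sums share 2 libraries, and the values are a description. 6330403K07Rik stood at 1.62 and 0.55 UMIs per 10000 in SMC-like cells and 1.31 and 0.51 in myofibroblast-like cells, against 0.12 and 0.05 in Tcf21 matrix fibroblast-like cells. Prrx1 stood at 1.62 and 1.04 in vascular mural-like cells and 0.49 and 0.26 in SMC-like cells. All 6 were low, and none had a level above 2 per 10000 in the mural and muscle classes. In the Batch 1 vascular mural-like sum 1 molecule stood for 0.54 per 10000, so the levels of these genes there rest on few molecules. Each member was set against the mean of the other members, a different mean from the one used for outside genes. Actg2 (0.929) and Acta2 (0.925) followed it most closely, and Mylk (0.767) and Des (0.728) least.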

How the data were processed

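Per the labels, the deposited tables hold raw counts: UMIs per gene and cell barcode. The authors aligned reads to mm10 with Bowtie2 2.2.7 and counted unique UMIs over exons with the Drop-seq tools; the annotation version is not given in the sources used here. The copy of their subtype labels used here covered part of the Batch 1 cells and served only as an alternative.

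Cells with at most 10% mt- UMIs and at least 500 genes were kept. Cells were clustered in 2 rounds (Leiden, leidenalg 0.10.2) on log-normalized counts centred within each batch. The members and the listed contractile and paralog genes were left out. The rounds used 2000 then 1000 variable genes, 30 then 15 components, 20 then 15 neighbours and a resolution of 1. A class needed at least 3 markers of its list. Clusters without a name and 1 cell with cardiac markers stayed out of the fit. Clustering settings were chosen after the data were seen. No doublets were removed; Scrublet called 0.544% and 2.10% of cells, and leaving these out was an alternative.

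UMIs count captured 3′ ends, so no length correction was made. UMI sums per class and batch were tested with edgeR 4.0.16 (quasi-likelihood, TMM, filterByExpr, class and batch as terms, 24 sums, 11 residual degrees of freedom) with Benjamini-Hochberg adjustment, after a check on simulated data. DESeq2 1.42.0 was an alternative. The batch is the mouse, which pairs the class sums; deviations of the same mouse correlated between classes with a median r of 0.152 (0.030 to 0.516 over 66 pairs). Levels and shares carry exact Poisson and binomial 95% intervals, which cover counting error only. A count of 0 allows up to 3 counts. Detection was repeated with each cell thinned to 600 UMIs.

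The genes named were the 10 members, at most 5 called genes per comparison from 28 other contractile genes and 8 regulators (24 and 6 passed the filter), family paralogs, and the 6 genes most alike in pattern with at least 50 CPM in one sum (prior count 2). The members, lists, markers and comparisons were chosen with earlier results of these data known. Limits per cell such as 200 member UMIs per 10000 were set after the values were seen. Gene coordinates are from GENCODE vM21 and promoter windows from RefSeq, both on GRCm38, the assembly behind mm10.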

Additional observations from a re-analysis of the deposited data

Results flagged for a closer look

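The 1940 cells of Batch 2 with over 10% mitochondrial UMIs entered no comparison, yet held member UMIs above the limit that a count of 0 allows. Their 10 members summed to 4.10 UMIs per 10000 (3.92 to 4.28) against a floor of 0.00596 and 3.77 in the 5615 Batch 2 cells that were kept, with a median of 1957 UMIs per cell. Mylk stood at 0.98, Acta2 at 0.85 and Tagln at 0.85 UMIs per 10000 in these cells, and Cnn1 at 0.07.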

How the results depend on the processing

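All class tests rest on 2 mice. With class as the only factor (no replicate block), the genes called fell from 78 to 7 (SMC-like against myofibroblast-like), 225 to 95 (vascular mural-like against capillary pericyte-like), 319 to 120 (SMC-like against vascular mural-like), 679 to 282 (myofibroblast-like against Tcf21 matrix fibroblast-like) and 856 to 454 (capillary pericyte-like against Tcf21 matrix fibroblast-like), and the members called from 7, 7, 3 and 4 to 1, 4, 1 and 1, with 3 members called in the last comparison either way. SMC-like against myofibroblast-like gave 118 genes with no gene filter, 264 in a fit of only the 2 classes and 44 at a mitochondrial limit of 5%, and 3 members under DESeq2, 3 at the 5% limit and 4 without doublets. At 5% the genes called were 96 for vascular mural-like against capillary pericyte-like, 144 for SMC-like against vascular mural-like, with 0 members, and 491 for capillary pericyte-like against Tcf21 matrix fibroblast-like. Myofibroblast-like against Tcf21 matrix fibroblast-like gave 1 member at 5%, 1 with clusters from all genes, 2 with only the members left out and 2 without the top cell of each class and batch. The cause was not tested.

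DESeq2 moved the split of calls, from 56 higher and 22 lower to 43 and 34 in SMC-like against myofibroblast-like and from 167 and 152 to 155 and 232 in SMC-like against vascular mural-like. Against Tcf21 matrix fibroblast-like cells it moved from 271 and 408 to 394 and 315 for myofibroblast-like cells and from 415 and 441 to 569 and 376 for capillary pericyte-like cells, and the median over all genes moved from -0.10 to 0.18 and from -0.13 to 0.09.

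As means of the 2 batches, the members' sum was 75.9 UMIs per 10000 in vascular mural-like cells and became 88.2 with clusters from all genes, 120.2 at 5%, 64.8 without the top cells and 99.8 under the authors' labels. In capillary pericyte-like cells it was 12.3, with 16.2 and 16.6 in the first 2 of these, and in SMC-like cells 63.9, with 134 under the authors' labels. Detection of Acta2 in vascular mural-like cells was 84.4%, with 88.9%, 97.6% and 83.7% in the first 3, 100% under the authors' labels, 62.4% at 2 UMIs and 74.9% thinned. In capillary pericyte-like cells it was 10.3%, with 18.0% at 5%, 1.99% at 2 UMIs and 5.77% thinned, and in SMC-like cells 44.1%, with 75% under the authors' labels. Acta2 with Tagln was found in 66.2% of vascular mural-like cells and 43.3% thinned, in 36.2% of SMC-like cells and 75% under the authors' labels, and in 2.89% of capillary pericyte-like cells, with 11.7% at 5%, 1.44% thinned, 1.79% without the top cells and 2.27% under the authors' labels. The muscle actin share was 32.0% in vascular mural-like cells, with 34.3% and 37.8% for all-gene clusters and 5%. It was 3.24% in capillary pericyte-like cells, with 5.97%, 7.30% and, without the top cells, 2.50%. It was 25.0% in SMC-like cells and 39.0% under the authors' labels. Leaving out either batch moved the sums by less than 1 SD, over 41.8 to 86.0 (SMC-like), 11.9 to 27.7 (myofibroblast-like), 73.6 to 78.3 (vascular mural-like) and 11.4 to 13.3 (capillary pericyte-like), which for 2 values holds by construction. Under the authors' labels, Smooth Muscle stood for SMC-like, Pericyte-1 for vascular mural-like and Pericyte-2 for capillary pericyte-like cells. The paper lists Acta2 among the markers of Pericyte-1, and Acta2, Actg2, Cnn1 and Des among those of Smooth Muscle. Member values under these labels are therefore not independent of the labels, and Pericyte-1 held 9 cells. The Smooth Muscle label leaves out the MyoFB-2 cells that the SMC-like class holds, so these SMC-like values are of a narrower set of cells. Values under the authors' labels are also of Batch 1 alone, where the classes used here had sums of 78.3 in vascular mural-like and 86.0 in SMC-like cells, Acta2 in 84.6% and 58.6%, Acta2 with Tagln in 51.5% of SMC-like and 3.12% of capillary pericyte-like cells, and a muscle actin share of 29.6% in SMC-like cells.

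Log2 fold changes of members took the opposite sign 39 times, all but that of Cnn1 at 5% for values that had not passed the test. In myofibroblast-like against Tcf21 matrix fibroblast-like these were, with clusters from all genes, Cnn1 -3.62, Lmod1 -3.41, Mylk -0.13 and Tagln -0.34; with only the members left out, Cnn1 -3.64, Mylk -0.11 and Tagln -0.17; at 5%, Cnn1 -2.16, Lmod1 -3.13 and Mylk -0.088; with no mitochondrial limit, Cnn1 -4.23, Lmod1 -4.11 and Mylk -0.25; without the top cells, Cnn1 -3.76 and Mylk -0.070; and Mylk -0.13 with no gene filter, -0.0046 with no replicate block and -0.0020 without Batch 1 (0.020 without Batch 2), and Tagln -0.47 without Batch 1 (1.04 without Batch 2). In capillary pericyte-like against Tcf21 matrix fibroblast-like they were Acta2 at 0.0094 (DESeq2), 0.35 (all-gene clusters), 1.27 (5%), 0.30 (no limit) and 0.68 (without Batch 1, and -1.35 without Batch 2), Tagln at 0.37 (5%), Tpm2 at -0.15 (no gene filter), -0.18 (no replicate block), -0.60 (without Batch 2, and 0.43 without Batch 1) and -0.13 (without the top cells), and Actg2 at -0.071 (without the top cells). In SMC-like against vascular mural-like they were Actg2 -0.55 and Cnn1 -0.72 (5%), Myh11 -0.064 (no limit) and -0.55 (without Batch 1, and 2.02 without Batch 2), Tagln 0.085 (no replicate block) and 1.29 (without Batch 2, and -1.13 without Batch 1), and, without Batch 2, Acta2 0.40 and Tpm2 0.71, which were -1.87 and -0.74 without Batch 1. In vascular mural-like against capillary pericyte-like it was Mylk -0.10 without the top cells. The cause was not tested. Of the other member results, 485 kept direction and side, 47 lost the call and 14 gained one.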

Other observations

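Some member UMIs lay outside the classes compared. A cluster of 4 cells in Batch 1 and 21 in Batch 2 that was led by Pf4 and Ppbp, genes of platelets, beside haemoglobin genes, and that was given no class, had Myl9 at 18.9 and 1.70 UMIs per 10000 and Tpm2 at 11.6 and 1.32. In Batch 1 all 49 Myl9 and 30 Tpm2 molecules of this cluster came from 1 cell. Cells without a class held 19.0% of all Myl9 UMIs in Batch 1 and 17.9% in Batch 2. That 1 cell held 49 of the 50 molecules in Batch 1, and in Batch 2 the 1 cell set aside for cardiac markers held 29 of the 56, with Myl9 at 57.2 UMIs per 10000.

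Actc1, the cardiac actin, made 11.46% of actin UMIs in the 13 vascular mural-like cells of Batch 1 and 0.89% in the 89 of Batch 2. Desmin was listed in mesothelial-like cells at 0.23 and 1.45 UMIs per 10000.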
